A study of Mus musculus with 4 samples.

Results

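Collagens are the fibrous proteins of the extracellular matrix, and each is a triple helix of alpha chains encoded by one or more genes. The genes described here are all rows of the deposited count table whose symbol begins with Col, a number, the letter a and a second number. That pattern found 35 of the 16383 genes. Of these, 34 encode collagen chains, and the other, Col4a3bp, encodes a ceramide transfer protein that only carries a collagen gene's name. Col4a3bp is not counted among the chains below. It had 161 ± 8.70 CPM (normalised counts scaled to equal library size) in shNr4a3 and 156 ± 1.29 CPM in shNT (mean ± SD, n = 2 each) and did not pass the test (log2 fold change 0.05, edgeR adjusted p = 0.612).

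The libraries came from primary mouse cardiac fibroblasts, the main matrix-producing cells of the heart, taken from hearts of wild-type animals 3 months old and collected on day 7 of reprogramming. Both groups received MGT, the reprogramming factors Mef2c, Gata4 and Tbx5 that turn fibroblasts toward induced cardiomyocytes. The first group also received a hairpin against the nuclear receptor gene Nr4a3 (shNr4a3, 2 libraries), and the second a non-targeting hairpin (shNT, 2 libraries). The stated purpose of the study was to learn the molecular basis by which knockdown of Nr4a3 enhances reprogramming. No library without MGT and no untreated fibroblasts are among these samples, so each value compares the hairpins within MGT-treated cells. Whether the replicates are separate cultures or animals is not stated, so p-values measure only the spread between these libraries, which may be technical. How the factors and hairpins were delivered, and whether animals were pooled, is not stated either.

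The 4 libraries held 28220440 to 30976450 counts over genes on 16 chromosomes, and genes elsewhere were not analysed here. Nr4a3 itself had 18 and 32 counts in the shNr4a3 libraries, against 356 and 353 in the shNT libraries. At an edgeR adjusted p under 0.05, 30.7% of all tested genes were called higher in shNr4a3 and 29.4% were called lower, and the marker counts that follow stand beside these shares. Of 8 cardiac fibroblast markers tested, 3 were higher and 4 lower in shNr4a3, and their summed level was 3087 to 3528 CPM in shNr4a3 and 5049 to 5363 CPM in shNT. Vim was the largest part of that sum, at a mean of 2227 CPM in shNr4a3 and 3753 CPM in shNT. Tcf21 and Pdgfra were lower (log2 fold changes -3.35 and -2.26), Meox1 was higher (1.97) and Ddr2 did not pass. None of the 8 fibroblast markers was at 0 in all libraries. Summed markers of macrophages stood at 23.5 to 23.8 CPM in shNr4a3 and 42.9 to 57.3 CPM in shNT, with 0 of 8 higher and 5 lower. Of 7 cardiomyocyte markers, 6 were higher and 0 lower, with a summed level of 481 to 619 CPM in shNr4a3 and 255 to 273 CPM in shNT. Ttn was the largest part of this sum, at a mean of 301 CPM in shNr4a3 and 165 CPM in shNT. Myh6, which was called higher, had overlapping groups (10.5 and 4.01 CPM in shNr4a3, 4.03 and 2.58 CPM in shNT). Of 5 epicardial markers, 2 were higher and 1 was lower, with 39.4 to 41.2 CPM in shNr4a3 and 53.6 to 69.1 CPM in shNT. The epicardial marker that was lower, Msln, stood at a mean of 4.57 CPM in shNr4a3 and 29.8 CPM in shNT. The part of these marker shifts in the collagen results was not tested. In such bulk samples, fewer cells of a type and less RNA per cell cannot be told apart.

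Collagen chains are hydroxylated and folded into a triple helix in the endoplasmic reticulum, secreted, trimmed of their propeptides and crosslinked. Fibrillar collagens form the load-bearing fibrils, with types I and III as the bulk of the heart's interstitial matrix and types V and XI as minor chains that start fibrils and limit their width. Basement membrane collagen forms sheets under or around cells, FACIT collagens sit on the surface of fibrils, and the remaining classes build beaded filaments, hexagonal networks or membrane-anchored proteins. In the injured heart, activated fibroblasts are the main source of collagen types I and III.

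The collagen genes did not move as a block: the chains of type V, Col11a1, Col8a1 and Col10a1 were higher in shNr4a3, the chains of type I were lower, Col3a1 did not pass the test, and the basement membrane chains Col4a3 and Col4a4 were lower by the largest amounts. Of the 34 chain genes, 31 passed the filter on low counts and were tested. At an edgeR adjusted p under 0.05, 7 of these stood higher in shNr4a3, 14 stood lower, and 10 did not pass. Across all 10736 genes tested, 60.2% were called, 30.7% as higher and 29.4% as lower, beside 22.6% and 45.2% of the tested collagen chains. The median log2 fold change of the tested chains was 0.01, and that of all tested genes was 0.02. A log2 fold change beyond 1 was reached by 3 chains that were higher and 8 that were lower, where the shares of all tested genes were 12.9% and 13.4%. These counts are descriptions, since no test was run over the group of genes. The groups of 2 libraries did not overlap for 24 of the 31 chains, beside 81.0% of all tested genes.

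**Figure D1:**
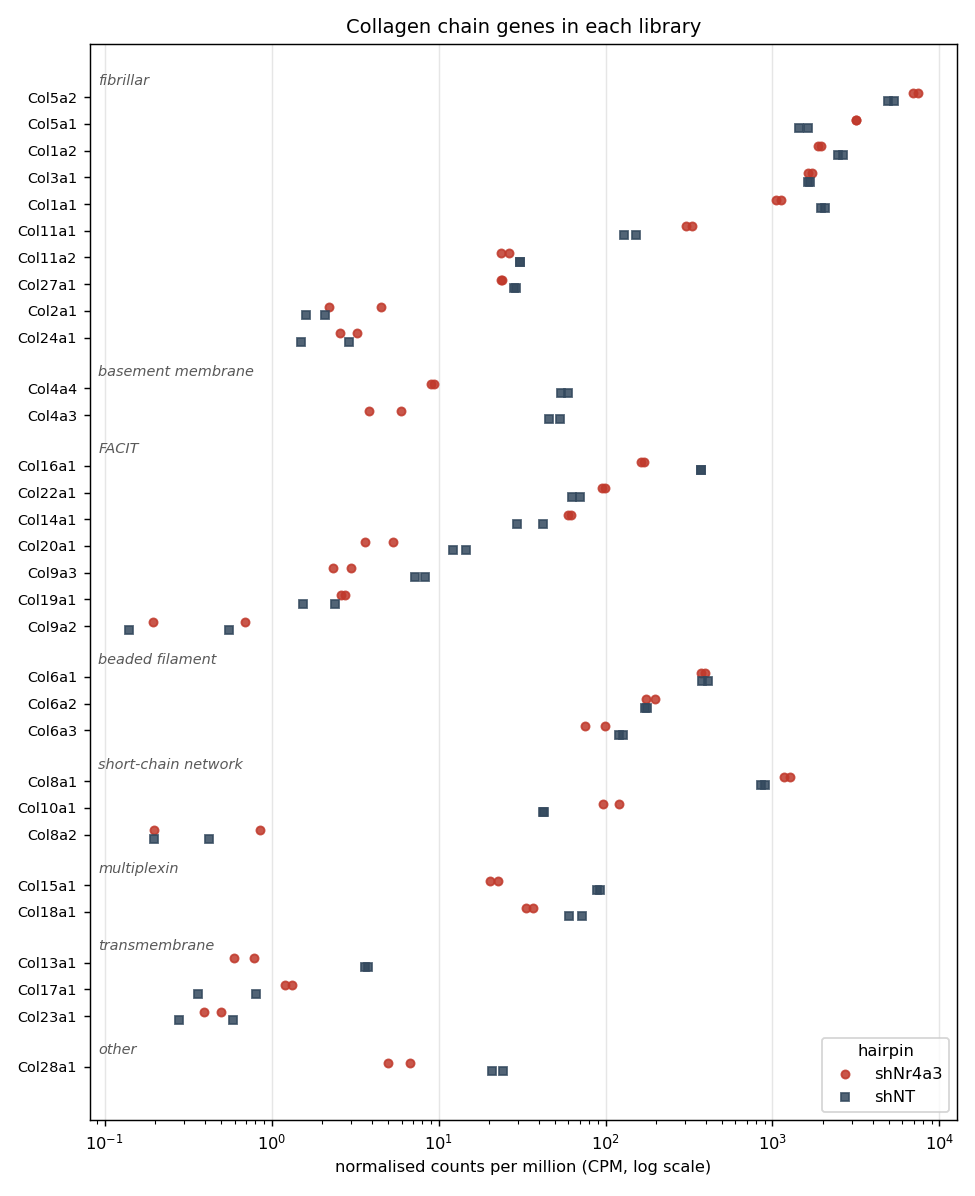
Normalised counts (CPM, log axis) of the 31 tested collagen chain genes in each of the 4 libraries, ordered by class and level, with shNr4a3 as circles above shNT as squares. The levels run from under 1 CPM for Col9a2, Col8a2 and Col23a1 to 7188 CPM for Col5a2 in shNr4a3, and the hairpins stand well apart for Col4a3, Col4a4 and Col15a1.

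**Figure D2:**
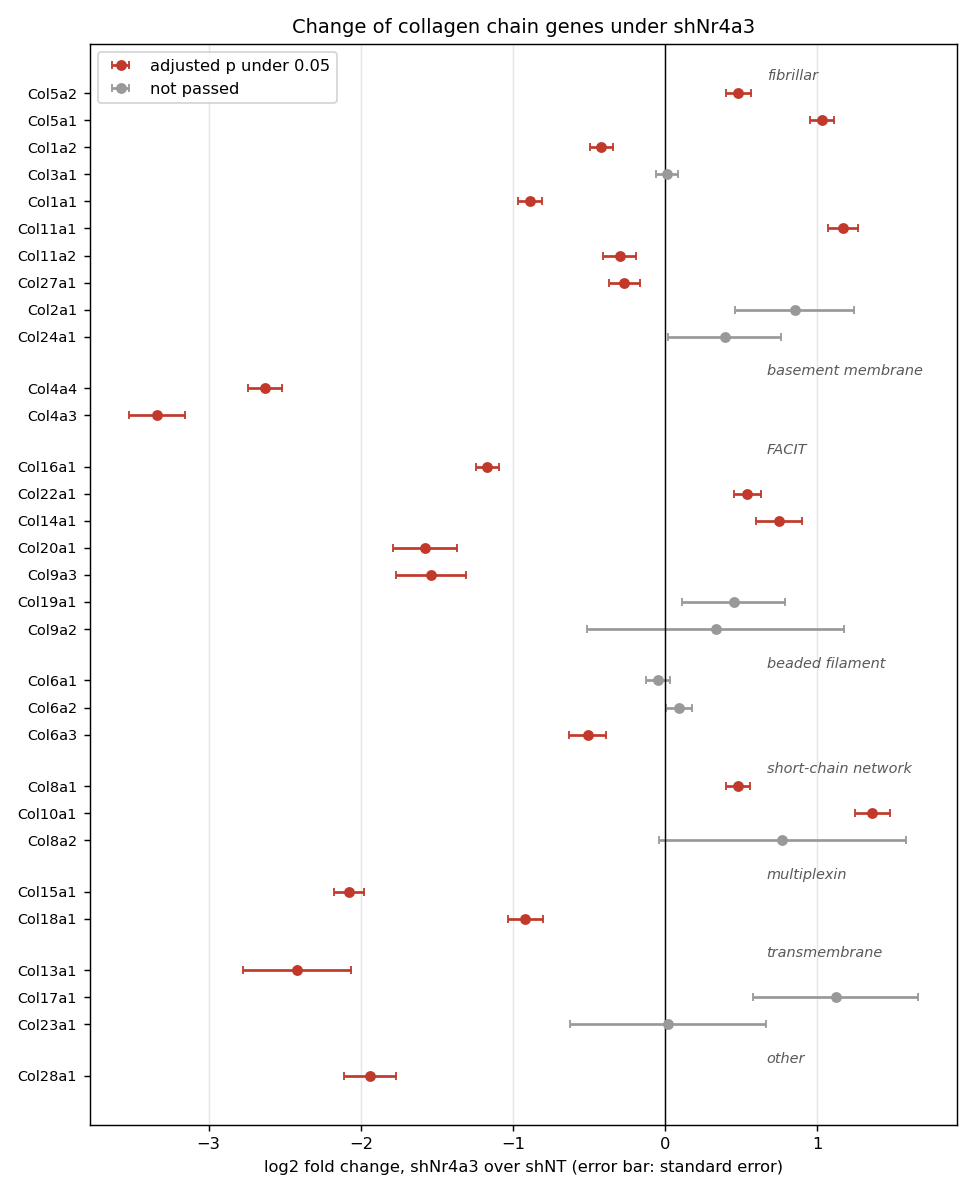
Log2 fold change of each tested collagen chain gene, shNr4a3 over shNT, with the standard error as bars, red where the edgeR adjusted p was under 0.05 and grey where it was not. Red points lie on both sides of 0 within the fibrillar and FACIT classes, from -3.34 for Col4a3 to 1.36 for Col10a1 over all classes.

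Fibrillar collagens made up most of the collagen counts, which here means the counts of the 34 chain genes. Of 45 collagen chains listed, 11 were not analysed here and lie outside that total. The 10 fibrillar genes took 86.8% and 86.2% of the collagen counts in the shNr4a3 libraries and 84.4% and 84.7% in the shNT libraries. All 10 were tested, with 3 higher, 4 lower and 3 not passing, beside 30.7% higher and 29.4% lower among all tested genes.

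Col1a1 encodes the chain that occurs as a pair in each type I molecule, with its gene on the plus strand of chromosome 11 (mm10, 94936224 to 94953042). It stood at 1125 and 1043 CPM in the shNr4a3 libraries, against 1948 and 2075 CPM in the shNT libraries. Both shNr4a3 libraries lay below both shNT libraries, and the gene fell by 0.89 on the log2 scale (SE 0.0792, edgeR adjusted p = 1.25e-05). Col1a2, its partner chain, lies on chromosome 6 at 4504814 to 4541544 (plus strand). It stood at 1947 and 1883 CPM in shNr4a3, against 2478 and 2649 CPM in shNT, again without overlap. Its fall was smaller, at -0.42 on the log2 scale (SE 0.0757, edgeR adjusted p = 0.00111).

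Because the chains of type I fell by unequal amounts, their ratio also differed between the hairpins. Counts per kilobase of Col1a1 divided by those of Col1a2 were 1.09 and 1.05 in the shNr4a3 libraries and 1.49 and 1.48 in the shNT libraries. The difference of the log2 ratios was -0.47, with an exact two-sided permutation p = 0.333, the smallest that 2 libraries against 2 allow. The length of Col1a2 in the table, 12426 bases, covers exons of all its annotated transcripts, and its longest coding transcript has 5348. With coding transcript lengths the ratios became 0.521 and 0.500 in shNr4a3 and 0.709 and 0.707 in shNT, and the difference on the log2 scale stayed at -0.47 because length cancels between hairpins.

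Col3a1 encodes the only chain of type III, which forms fibrils together with type I, and lies on chromosome 1 at 45311538 to 45349706 (plus strand). It stood at 1721 and 1637 CPM in the shNr4a3 libraries and at 1687 and 1637 CPM in the shNT libraries. The groups overlapped, and the log2 fold change was 0.01 (SE 0.0739, edgeR adjusted p = 0.876). The ratio of Col3a1 to Col1a1 per kilobase was therefore 1.02 and 1.05 in shNr4a3 and 0.579 and 0.527 in shNT, a difference of 0.91 in log2 ratio (exact permutation p = 0.333, the smallest possible). With coding transcript lengths the ratio was 1.63 and 1.67 in shNr4a3 and 0.923 and 0.841 in shNT, with the same log2 difference.

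Col5a2, a chain of the fibril-starting type V, was the most abundant of the 34 chain genes in every library. It lies on chromosome 1 at 45374321 to 45503282 (minus strand), tail to tail with Col3a1 and 24.6 kb away from it. It stood at 7442 and 6933 CPM in shNr4a3, against 4949 and 5376 CPM in shNT, and was higher in both shNr4a3 libraries (log2 fold change 0.48, SE 0.0808, edgeR adjusted p = 7.62e-04). Col5a1, the other type V chain among these genes, lies on chromosome 2 at 27886425 to 28039514 (plus strand). It stood at 3155 and 3143 CPM in shNr4a3 and at 1451 and 1625 CPM in shNT, which is 1.03 on the log2 scale (SE 0.0818, edgeR adjusted p = 6.07e-06). The shNr4a3 libraries lay above the shNT libraries by about as much as the level in shNT itself. Exons of the opposite-strand 2810430I11Rik and Gm13372 overlap 1.2% and 1.3% of the Col5a1 exon length. The ratio of Col5a1 to Col5a2 per kilobase was 0.479 and 0.512 in shNr4a3 and 0.331 and 0.341 in shNT (difference of log2 ratios 0.56, exact permutation p = 0.333, the smallest possible).

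Col11a1 encodes a chain of type XI, the cartilage counterpart of type V that can also join type V chains. It lies on chromosome 3 at 114030540 to 114220718 (plus strand). It stood at 330 and 302 CPM in the shNr4a3 libraries, against 128 and 153 CPM in the shNT libraries (log2 fold change 1.17, SE 0.0992, edgeR adjusted p = 9.41e-06). Col11a2, its partner in type XI, was slightly lower, at 23.5 and 26.3 CPM in shNr4a3 and 30.6 and 30.8 CPM in shNT (log2 fold change -0.30, edgeR adjusted p = 0.035). That call was lost with DESeq2 (adjusted p = 0.0806), and with edgeR it was lost without shNr4a3 replicate 1 (0.132), without shNT replicate 1 (0.101) and without shNT replicate 2 (0.142). Col27a1, a minor fibrillar chain of cartilage, had a log2 fold change of -0.27 (23.8 ± 0.0976 CPM in shNr4a3 and 28.7 ± 0.661 CPM in shNT, edgeR adjusted p = 0.0443). Its call was lost with DESeq2 (adjusted p = 0.12) and without any single library, where the edgeR adjusted p was 0.0695 to 0.173.

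The other fibrillar genes were scarce. Col2a1, the main collagen of cartilage, had 136 and 68 counts in shNr4a3 and 46 and 64 in shNT (log2 fold change 0.85, edgeR adjusted p = 0.0861), and it passed only without shNr4a3 replicate 2, the lower library of its group (1.27, adjusted p = 0.0103). Col24a1, a minor fibrillar chain of developing bone, had 77 and 99 counts in shNr4a3 and 83 and 46 in shNT, and its groups overlapped (log2 fold change 0.39, edgeR adjusted p = 0.386). Of the cartilage and bone markers, Sox9 was lower in shNr4a3 (24.6 ± 0.943 CPM, against 51.8 ± 2.08 CPM in shNT), Runx2 did not pass, and the other 5 of 7 stayed under 1 CPM in all libraries.

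As a result of these shifts, the make-up of the collagen counts differed between the hairpins. Col5a1 took 17.4% and 18.1% of collagen counts in the shNr4a3 libraries and 9.64% and 10.1% in the shNT libraries. Col1a1 took 6.19% and 6.0% in shNr4a3 and 12.9% in both shNT libraries. Col5a2 held 40.9% and 39.9% in shNr4a3 and 32.9% and 33.5% in shNT. The 34 chain genes together took 1.81% and 1.72% of the table's counts in shNr4a3 and 1.52% and 1.61% in shNT. The difference of 0.199 percentage points was higher in both shNr4a3 libraries, with an exact permutation p = 0.333, again the smallest possible.

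**Figure D3:**
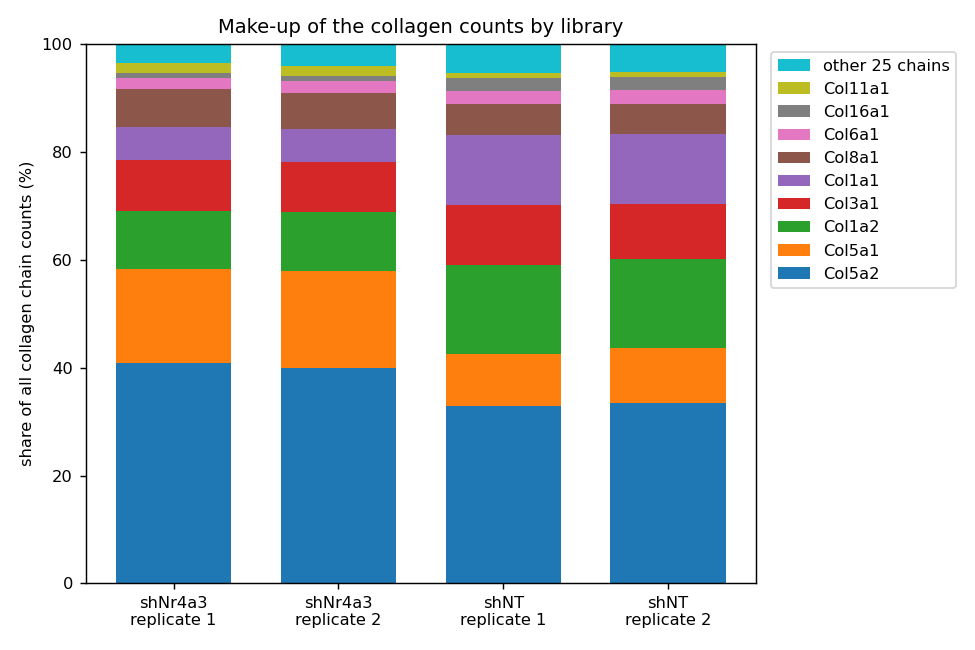
Share of all collagen chain counts (percent, not corrected for gene length) taken by the 9 most abundant chains and by the other 25 together, as stacked bars for each library. The Col5a1 band covers 17.4% and 18.1% in shNr4a3 and 9.64% and 10.1% in shNT, while the Col1a1 and Col1a2 bands are narrower in both shNr4a3 libraries.

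Levels of different genes can be compared only per length. On the scale of CPM per kilobase of exon in the table, the order of levels in shNr4a3 was Col5a2 (749 ± 37.5), Col5a1 (371 ± 0.930), Col8a1 (239 ± 13.0), Col3a1 (171 ± 6.10), Col1a1 (165 ± 8.76), Col1a2 (154 ± 3.63) and Col6a1 (87.2 ± 3.48). In shNT it was Col5a2 (538 ± 31.5), Col1a1 (306 ± 13.7), Col1a2 (206 ± 9.73), Col5a1 (181 ± 14.5), Col8a1 (172 ± 6.94), Col3a1 (169 ± 3.66) and Col6a1 (90.2 ± 5.69). Some of these neighbours had overlapping ranges over the libraries, so they were also compared within each library. Col3a1 was above Col1a1 in shNr4a3 replicate 1 (175 and 171) and replicate 2 (167 and 159). Col5a1 was above Col8a1 in shNT replicate 1 (171 and 167) and replicate 2 (191 and 177). Col3a1 stood above both in shNT replicate 1 (172) and below both in replicate 2 (167), so on this scale its order against them is not set. Several places changed per kilobase of the longest coding transcript. The order in shNr4a3 was then Col5a2 (1085), Col5a1 (375), Col1a2 (358), Col3a1 (302), Col8a1 (239), Col1a1 (183) and Col6a1 (93.2). In shNT it was Col5a2 (779), Col1a2 (479), Col1a1 (339), Col3a1 (299), Col5a1 (183), Col8a1 (172) and Col6a1 (96.3). Col5a2 was first and Col6a1 the seventh in both groups on either scale. That length was chosen after the values had been seen.

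**Figure D4:**
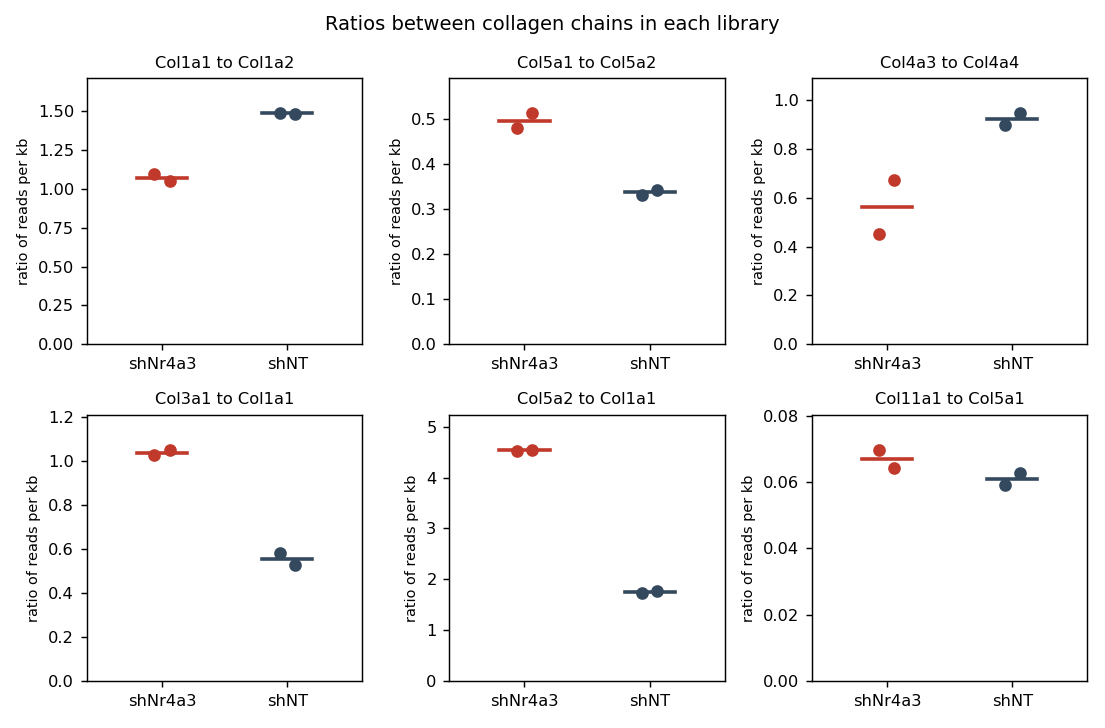
Ratio of counts per kilobase between 6 pairs of collagen chains, with each library as a point and the group mean as a line, shNr4a3 on the left and shNT on the right of each panel (axes start at 0). Col1a1 to Col1a2 was lower in shNr4a3 (1.09 and 1.05) than in shNT (1.49 and 1.48), and Col5a2 to Col1a1 was 4.53 and 4.55 in shNr4a3 and 1.74 and 1.77 in shNT.

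Col4a3 and Col4a4, the basement membrane collagen genes among these rows, were lower in shNr4a3 by more than any other tested chain. They encode chains of the type IV network of the kidney's filtering membrane, and in humans their mutation causes Alport syndrome. The genes lie head to head on chromosome 1, Col4a3 at 82586921 to 82722059 on the plus strand and Col4a4 at 82448423 to 82586849 on the minus strand. Only 71 bases separate their annotated starts, and the sequence shown next holds them. It is the RefSeq window from 250 bases before to 50 after the Col4a4 start (GRCm38.p6, chr1:82586800-82587099, minus strand), with the bases between the starts in capitals. Only the capitals lie upstream of both genes, since the window reaches into the first transcribed bases of Col4a4 on one side and into Col4a3 on the other.

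Col4a4: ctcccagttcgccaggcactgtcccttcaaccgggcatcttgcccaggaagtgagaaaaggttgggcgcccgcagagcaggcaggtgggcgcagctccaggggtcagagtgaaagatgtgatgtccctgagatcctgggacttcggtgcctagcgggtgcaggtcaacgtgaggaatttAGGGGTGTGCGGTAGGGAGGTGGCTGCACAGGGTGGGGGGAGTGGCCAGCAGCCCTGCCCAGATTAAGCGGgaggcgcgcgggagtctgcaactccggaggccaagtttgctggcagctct

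Col4a3 had 116 and 182 counts in the shNr4a3 libraries, against 1314 and 1624 in the shNT libraries. On the CPM scale these were 3.84 and 5.93 in shNr4a3 and 46.0 and 53.1 in shNT, which is -3.34 on the log2 scale (SE 0.183, edgeR adjusted p = 6.93e-07). Col4a4 had 273 and 289 counts in shNr4a3 and 1555 and 1827 in shNT, which were 9.04 and 9.41 CPM in shNr4a3 and 54.5 and 59.8 CPM in shNT. It fell by 2.63 on the log2 scale (SE 0.111, edgeR adjusted p = 1.62e-07). Both genes thus fell together in both shNr4a3 libraries, by about 10.1-fold and 6.19-fold. The ratio of Col4a3 to Col4a4 per kilobase was 0.452 and 0.671 in shNr4a3 and 0.90 and 0.946 in shNT, so the shNr4a3 libraries were below the shNT libraries but far apart from each other. Exons of the opposite-strand transcript C430014B12Rik overlap 5.6% of the Col4a3 exon length, and with the strand setting of the counting not given, its reads cannot be told apart from those of Col4a3. The remaining type IV chains, among them the widely expressed Col4a1 and Col4a2, were not analysed here.

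The multiplexins Col15a1 and Col18a1, whose proteins sit in the basement membrane zone, were also lower. Col15a1 stood at 20.3 and 22.8 CPM in shNr4a3, against 92.7 and 89.4 CPM in shNT (log2 fold change -2.08, SE 0.0992, edgeR adjusted p = 2.75e-07). Col18a1, the precursor of the angiogenesis inhibitor endostatin, stood at 36.8 and 33.3 CPM in shNr4a3 and 60.1 and 72.4 CPM in shNT (log2 fold change -0.92, SE 0.114, edgeR adjusted p = 1.12e-04). For both genes every shNr4a3 library was below every shNT library. Of 6 endothelial markers, whose cells rest on basement membranes, 2 were higher, 2 lower and 2 did not pass. Their summed level was 89.1 to 100.2 CPM in shNr4a3 and 97.5 to 113 CPM in shNT, and their part in the result was not tested.

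FACIT collagens went both ways. Of 8 genes, 7 were tested, with 2 higher, 3 lower and 2 not passing. Among all tested genes, 30.7% were called higher and 29.4% lower. Col16a1, a fibril-associated chain made by fibroblasts and smooth muscle and the most abundant FACIT gene here, stood at 169 and 162 CPM in shNr4a3, against 371 and 374 CPM in shNT (log2 fold change -1.17, SE 0.0747, edgeR adjusted p = 1.68e-06). Col22a1, a collagen of tissue junctions such as those between muscle and tendon, was higher, at 98.9 and 95.6 CPM in shNr4a3 and 70.5 and 63.4 CPM in shNT (log2 fold change 0.54, edgeR adjusted p = 6.19e-04). Col14a1, which binds the surface of type I fibrils, was higher at 61.8 and 59.6 CPM in shNr4a3, against 29.5 and 42.4 CPM in shNT, where the libraries were wide apart (log2 fold change 0.75, SE 0.151, edgeR adjusted p = 0.00208). Its log2 fold change was 0.50 without shNT replicate 1 and 1.04 without shNT replicate 2, and it passed in both cases. None of the 3 had overlapping groups, as was the case for 81.0% of all tested genes.

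The low-level FACIT genes that passed were lower in shNr4a3. Col20a1 had 110 and 163 counts in shNr4a3 and 348 and 446 in shNT (log2 fold change -1.58, edgeR adjusted p = 1.69e-04). Col9a3, a chain of the cartilage FACIT type IX, had 70 and 92 counts in shNr4a3 and 205 and 255 in shNT (log2 fold change -1.54, edgeR adjusted p = 3.42e-04). Exons of Tcfl5 on the opposite strand overlap 6.10% of the Col9a3 exon length. Col19a1 had 79 and 84 counts in shNr4a3 and 68 and 47 in shNT, and Col9a2 had 21 and 6 in shNr4a3 and 4 and 17 in shNT. Neither passed (log2 fold changes 0.45 and 0.33, edgeR adjusted p = 0.274 and 0.752). Col9a1 had 0 counts in all libraries, which allows a share of up to 9.68e-06% to 1.06e-05% of a library's counts.

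Type VI collagen, which forms beaded microfilaments around cells, was the steadiest class. Col6a1 stood at 371 and 393 CPM in shNr4a3 and 377 and 413 CPM in shNT, and Col6a2 at 174 and 198 CPM in shNr4a3 and 173 and 177 CPM in shNT. These genes lie 85.2 kb apart on chromosome 10, their groups overlapped, and neither passed (log2 fold changes -0.05 and 0.09, SE 0.0801 and 0.0855, edgeR adjusted p = 0.628 and 0.385). Without shNr4a3 replicate 1, Col6a2 passed as higher by 0.18 (adjusted p = 0.0498). Col6a3, the largest type VI chain, was lower, at 75.6 and 98.8 CPM in shNr4a3 and 127 and 121 CPM in shNT (log2 fold change -0.51, SE 0.12, edgeR adjusted p = 0.00516). For Col6a3 the shNr4a3 libraries were farther apart than the shNT libraries, and both were lower than either of them.

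Of the 3 network-forming short-chain collagen genes, 2 were higher and 1 did not pass, beside 30.7% of all tested genes called higher. Col8a1, a chain of vessel walls and of the cornea, stood at 1267 and 1173 CPM in shNr4a3, against 852 and 903 CPM in shNT (log2 fold change 0.48, SE 0.0785, edgeR adjusted p = 6.53e-04). Col10a1, known as the collagen of hypertrophic cartilage, had 2919 and 3722 counts in shNr4a3, against 1215 and 1292 in shNT. On the CPM scale these were 96.7 and 121 in shNr4a3 and 42.5 and 42.3 in shNT, the largest rise of any chain that passed (log2 fold change 1.36, SE 0.114, edgeR adjusted p = 8.82e-06). Exons of Nt5dc1 on the opposite strand overlap 0.6% of the Col10a1 exon length. Col8a2, the partner of Col8a1, had 6 and 26 counts in shNr4a3 and 12 and 6 in shNT, and did not pass (edgeR adjusted p = 0.439). Of 4 mural cell markers, cells of the vessel wall, 3 were higher and 1 was lower, with a summed level of 234 to 256 CPM in shNr4a3 and 208 to 213 CPM in shNT. Their part in the result was not tested.

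Transmembrane collagens and the remaining types were scarce. Col13a1, a chain of cell adhesion sites and the neuromuscular junction, had 18 and 24 counts in shNr4a3, against 104 and 116 in shNT (log2 fold change -2.42, SE 0.353, edgeR adjusted p = 2.98e-04). Col28a1, a collagen of peripheral nerve, had 151 and 207 counts in shNr4a3, against 690 and 638 in shNT (log2 fold change -1.94, SE 0.171, edgeR adjusted p = 1.19e-05). Of the Schwann cell markers, Sox10 was under 1 CPM in all libraries, and Cdh19 was lower at 1.81 ± 0.254 CPM in shNr4a3, against 4.61 ± 0.281 CPM in shNT. The part of these markers in the Col28a1 result was not tested. Col17a1, a hemidesmosome protein, had 40 and 37 counts in shNr4a3 and 23 and 11 in shNT, and Col23a1 had 15 and 12 in shNr4a3 and 8 and 18 in shNT. Neither passed (edgeR adjusted p = 0.102 and 0.979). Col25a1 (0 and 4 counts in shNr4a3, 8 and 0 in shNT) and Col26a1 (4 and 0 in shNr4a3, 0 and 0 in shNT) were too low to test.

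Promoter windows of the same form were given by RefSeq (GRCm38.p6) for 26 of the 34 chain genes, which had 29 windows. Windows of the other 8 were not at hand and were not searched for motifs. These are Col1a1, Col2a1, Col4a3, Col5a2, Col9a3, Col14a1, Col22a1 and Col26a1, most of which were called in the test. Windows are shown for 3 genes that differ in direction: Col1a2, which was lower in shNr4a3, and Col5a1 and Col10a1, which were higher. Capitals mark every match, on either strand, of the CCAAT box (CCAAT), the GC box (GGGCGG) and the TATA box (TATAAA).

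Col1a2: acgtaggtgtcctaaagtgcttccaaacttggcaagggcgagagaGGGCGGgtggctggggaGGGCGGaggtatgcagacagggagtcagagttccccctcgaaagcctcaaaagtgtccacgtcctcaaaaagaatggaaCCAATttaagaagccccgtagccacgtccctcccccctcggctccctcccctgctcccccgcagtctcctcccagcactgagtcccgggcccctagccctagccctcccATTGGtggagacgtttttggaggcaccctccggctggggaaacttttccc

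Col5a1: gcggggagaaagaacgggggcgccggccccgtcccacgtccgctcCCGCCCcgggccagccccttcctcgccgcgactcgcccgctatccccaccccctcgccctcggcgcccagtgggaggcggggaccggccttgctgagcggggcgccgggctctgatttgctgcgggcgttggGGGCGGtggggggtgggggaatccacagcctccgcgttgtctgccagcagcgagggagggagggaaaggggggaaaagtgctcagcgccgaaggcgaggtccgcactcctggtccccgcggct

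Col10a1: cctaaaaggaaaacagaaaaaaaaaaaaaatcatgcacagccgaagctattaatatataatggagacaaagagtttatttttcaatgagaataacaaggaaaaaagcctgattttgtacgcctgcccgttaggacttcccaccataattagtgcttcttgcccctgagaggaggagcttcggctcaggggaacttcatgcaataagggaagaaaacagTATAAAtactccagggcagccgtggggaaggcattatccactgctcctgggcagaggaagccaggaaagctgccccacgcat

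The Col1a2 window is chr6:4505368-4505667 (plus strand), the Col5a1 window chr2:27886175-27886474 (plus strand) and the Col10a1 window chr10:34389731-34390030 (plus strand). The RefSeq start behind the Col1a2 window, 4505618, lies downstream of the annotated gene start given above, 4504814. The Col1a2 window held CCAAT on both strands and GGGCGG at 2 places, the Col5a1 window held only GGGCGG, and the Col10a1 window held only TATAAA, which began 32 bases before the start. The NBRE, the site that Nr4a receptors bind as monomers (AAAGGTCA, either strand), was found in windows of 2 of the 26 genes, Col23a1 and Col24a1, beside 1.51% of all 32851 windows. Neither gene passed the test. CCAAT was present for 7 of the 26 genes (37.4% of all windows), TATAAA for 5 (13.6%) and GGGCGG for 13 (35.7%). The sequences of the 4 motifs do not contain each other, and 2 pairs of matches overlapped in the collagen windows. Such matches describe letters in a short window, not binding.

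Genes that modify, trim, crosslink, bind or degrade collagen were read from the same fit. Of 60 such genes listed, 34 were analysed here, so each list below is incomplete. Of 33 tested, 15 were higher, 7 lower and 11 did not pass, beside the 30.7% and 29.4% of all tested genes called higher and lower. The counts of the separate lists below stand beside the same shares.

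Among 15 genes of chain modification and folding, 9 were higher, 3 lower and 3 did not pass. The median of their log2 fold changes was 0.39. Colgalt2, which adds galactose to hydroxylysine, had 196 and 200 counts in shNr4a3, against 5 and 10 in shNT (log2 fold change 4.66, SE 0.364, edgeR adjusted p = 5.61e-06). P3h2, a prolyl 3-hydroxylase known to act on basement membrane collagen, stood at 242 and 274 CPM in shNr4a3 and 105 and 83.3 CPM in shNT (log2 fold change 1.45, edgeR adjusted p = 7.33e-06), although the opposite-strand Gm4524 overlaps 28.4% of its exon length. P4hb went the other way, at 447 and 400 CPM in shNr4a3 and 1144 and 1133 CPM in shNT (log2 fold change -1.43, SE 0.0824, edgeR adjusted p = 9.19e-07). It was the most abundant gene of the list per length in the mean of all libraries and in shNT (398 CPM per kilobase). In shNr4a3, P4ha1 (298) and Mia3 (197), which are also of this list, stood above P4hb (148). P4hb is protein disulphide isomerase, which is the beta subunit of prolyl 4-hydroxylase and folds many other proteins. Its catalytic partners P4ha1 and P4ha2 were higher, by 1.22 and 0.27 (edgeR adjusted p = 3.87e-06 and 0.0162). The lysyl hydroxylase genes analysed here split, with Plod1 higher by 1.18 and Plod3 at -0.73. Znhit1 on the opposite strand overlaps 11.7% of the Plod3 exon length.

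Of 9 genes of propeptide removal and crosslinking, 4 were higher, 1 was lower and 4 did not pass. Adamts14, a protease of the N-terminal propeptide, stood at 61.4 and 73.8 CPM in shNr4a3, against 6.72 and 7.23 CPM in shNT (log2 fold change 3.27, SE 0.13, edgeR adjusted p = 1.28e-07). Adamts2, the main protease for the same propeptide, was lower at 140 ± 1.22 CPM in shNr4a3 and 184 ± 6.10 CPM in shNT (log2 fold change -0.40, edgeR adjusted p = 0.00144). Bmp1, which removes the C-terminal propeptide, was higher at 376 and 391 CPM in shNr4a3 and 179 and 180 CPM in shNT (log2 fold change 1.10). Of 3 lysyl oxidase genes, whose enzymes crosslink fibrils, Loxl2 and Lox were higher and Loxl4 did not pass (log2 fold change 0.09, edgeR adjusted p = 0.534). Loxl2 stood at 2008 and 1984 CPM in shNr4a3 and 669 and 759 CPM in shNT (log2 fold change 1.48, edgeR adjusted p = 8.88e-07). Exons of the opposite-strand Gm27177 overlap 5.6% of the Loxl2 exon length. Lox, the most abundant gene of this list per length, stood at 2072 and 1960 CPM in shNr4a3 and 1195 and 1273 CPM in shNT (log2 fold change 0.71, edgeR adjusted p = 4.74e-05).

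Of 9 tested receptor and degradation genes, 2 were higher, 3 lower and 4 did not pass. The shares of all tested genes were 30.7% higher and 29.4% lower. Fap, a protease of activated fibroblasts, had 22 and 23 counts in shNr4a3, against 122 and 163 in shNT (log2 fold change -2.69, edgeR adjusted p = 8.63e-05). Ctsk, the collagen-cleaving cathepsin K, stood at 97.3 and 83.9 CPM in shNr4a3 and 36.1 and 37.3 CPM in shNT (log2 fold change 1.30, edgeR adjusted p = 5.15e-06). Mmp14, a membrane-bound collagenase, was lower at 87.1 and 84.5 CPM in shNr4a3 and 141 and 154 CPM in shNT (log2 fold change -0.78). Mrc2, the uptake receptor for collagen fragments, had a log2 fold change of -0.63 (389.8 ± 18.7 CPM in shNr4a3 and 605 ± 48.3 CPM in shNT, edgeR adjusted p = 1.73e-04). It was the most abundant of the list per length in the mean of all libraries and in shNT (90.7 CPM per kilobase). In shNr4a3 the means of Ctsk (59.9) and Mrc2 (58.4) were close. The collagen receptor Ddr1 was higher by 0.71 and Ddr2, the receptor typical of fibroblasts, differed by 0.00 on the log2 scale (SE 0.0725, edgeR adjusted p = 0.961).

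**Figure D5:**
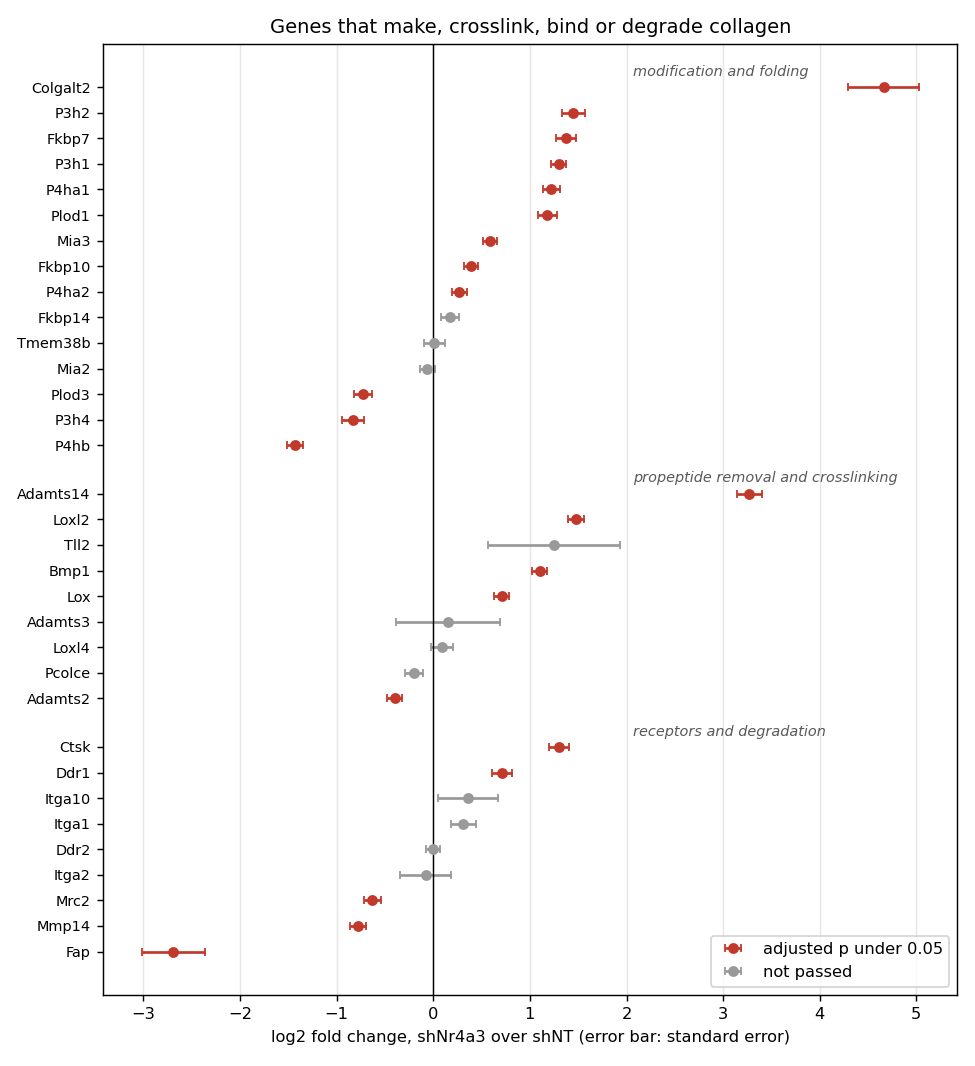
Log2 fold change of the 33 tested genes that make, crosslink, bind or degrade collagen, shNr4a3 over shNT, with the standard error as bars, red where the edgeR adjusted p was under 0.05 and grey where it was not. Colgalt2 (4.66) and Adamts14 (3.27) lie farthest to the right, and Fap (-2.69) and P4hb (-1.43) farthest to the left.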

How the data were processed

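Per the labels' protocols, RNA was depleted of ribosomal RNA and made into stranded paired-end libraries, while the molecule label reads polyA RNA. Per the submitters' processing notes, Trimmomatic 0.36, SAMtools and featureCounts of Subread 1.5.1 were used with mm10. No source used here names the aligner, the annotation release or the strand setting. The authors deposited raw counts per gene and each gene's exon length. The exon lists of long genes are cut off in the table, so positions and overlaps came from GENCODE M21 (GRCm38, equal to mm10). Exon overlaps with other genes are given above for some of the named genes, not for all that have them.

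The main test was edgeR's quasi-likelihood test (version 4.0.16, under R 4.3.3). Low counts were removed by filterByExpr, libraries were scaled by TMM, and the model held the hairpin alone. P-values were adjusted by Benjamini-Hochberg over 10736 genes, with a threshold of 0.05. The standard error is the log2 fold change divided by the square root of F. CPM are counts divided by the TMM-scaled library size. One count was worth 0.0326 to 0.0350 CPM, and floors (3 counts) cover counting error only. Libraries of a group differed by more than counting noise (chi-square per degree of freedom 22.1 in shNr4a3 and 10.6 in shNT). DESeq2 1.42.0, limma-voom (limma 3.58.1), other scalings and filters, a replicate block and leaving out each library were alternatives. The fits were tested on simulated data.

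Members, classes and gene lists were chosen with earlier results of these data known. By the naming rule, every tested chain is named, as are the 3 largest called changes and the most abundant gene of each related list. The most abundant gene is that with the highest mean per length over all libraries. Further genes of these lists were named after their values were seen. A marker gene of the Schwann cell list, and the list's summed level, are not reported here.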

Additional observations from a re-analysis of the deposited data

How the results depend on the processing

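Of the 31 tested collagen chains, 27 kept their direction where called and their side of the threshold under all 11 alternatives that gave them a value. The exceptions, Col11a2, Col27a1, Col2a1 and Col6a2, are given above, and no called chain changed sign. The counts of chains called were 7 higher and 12 lower with DESeq2, and 7 and 14 with RLE scaling, no scaling factors, limma-voom, no low-count filter and at least 10 counts in every library, which left 28 chains. Leaving out a library gave 7 to 8 higher and 12 to 13 lower chains, 14 to 16 higher and 7 to 8 lower genes of the related lists, and 5245 to 6360 of all genes, against 6458 with all libraries. The collagen share differed by 0.156 to 0.241 percentage points and the log2 ratio of Col1a1 to Col1a2 by -0.502 to -0.442 in these runs. The replicate numbers are shared by the hairpins in the labels, but the labels do not say that they mark a shared culture, and deviations of same-numbered libraries had a correlation of 0.0455 over genes. With the replicate number as a block, 6659 genes were called, with 7 chains higher and 14 lower. Counts of 26 or fewer in every library (Col9a2, Col8a2, Col23a1) limit what could be detected for these genes.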
